A study of Homo sapiens with 36 samples.

Results

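The collagen genes of human cells were followed through 36 RNA-seq libraries of 2 breast cell lines. Members were the protein-coding genes whose symbol reads COL, a number, A and a number, without COL17A1, which gave 43 genes out of 19586 protein-coding genes in the deposited tables. The rule reads gene symbols and no measured value. By the structure of their proteins they were sorted into 11 fibrillar collagens, 6 chains of the basement membrane network and 26 others.

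Collagens are proteins of 3 chains wound into a triple helix, and each gene encodes 1 kind of chain. Fibrillar collagens (types I, II, III, V, XI and their relatives) build the cable-like fibrils of connective tissue. Type IV chains (COL4A1 to COL4A6) assemble into the sheet-like network under epithelia, which breast epithelial cells make themselves. The remaining types attach to fibrils (the FACIT collagens, such as types XII and XVI), anchor the basement membrane to the tissue beneath (type VII), form beaded filaments (type VI) or short-chain networks (type VIII), or sit in the cell membrane (type XIII). Stiffness and adhesion to such a matrix are among the inputs that control YAP and TAZ, paralogous co-activators that bind DNA through partners such as the TEAD proteins.

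The first cell line is ER-Src, a derivative of the immortal but untransformed mammary line MCF-10A in which v-Src is joined to the hormone-binding part of the estrogen receptor. Tamoxifen (TAM) switches the fusion on and ethanol (ETH) is the vehicle. Each treatment had 5 groups of 2 libraries, with small interfering RNA (siRNA) pools against YAP (YAPi), TAZ (TAZi), STAT3 (STAT3i) or JUNB (JUNBi), or a control siRNA (Ctrli). JUNB is a subunit of the AP-1 factors. All 10 groups carry the ER-Src fusion, so none shows MCF-10A without it. The second, MDA-MB-231, comes from a triple-negative tumour and is widely used as an invasive cancer line. Its titles place it in 2 sets, each with its own Ctrli libraries. Beside Ctrli, set 1 had YAPi, TAZi, both together (YAPi_TAZi) and TEADi (siRNAs against TEAD proteins), and set 2 had JUNBi and STAT3i, with 2 libraries per group. The labels' treatment text names tamoxifen together with AZD0530, an inhibitor of Src family kinases, for every sample of both lines without saying which libraries received it, and their growth text describes only the ER-Src medium. The time under TAM is not in the labels, and the study's methods give more than 1. Nothing says that the 2 libraries of a group came from separate cultures, so p-values measure only the spread between these libraries, which may be technical.

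ER-Src libraries held between 6419720 and 19161700 expected counts, of which 5222 to 16952 fell on collagens. Set 1 controls held 13456784 and 13534560, knockdowns of set 1 only 1411304 to 2784605 (1727 to 3318 of them on collagens), and set 2 libraries 7290499 to 18076158. The share of all TPM on protein-coding genes was 94.0% to 94.5% in set 2 and the controls of set 1. It was 20.2% to 28.9% in ER-Src, and in the knockdowns of set 1 it was 20.0% to 23.2% in each replicate 1 and 36.9% to 37.9% in each replicate 2. The siRNA and the difference in library composition between controls and knockdowns of set 1 cannot be told apart. TPM values below are therefore also given as coding TPM, rescaled so that protein-coding genes have the same fixed sum in every library. The deposited lengths also split ER-Src: length minus effective length was 49 bases in STAT3i and JUNBi and 49.5 bases in the rest, a difference that cannot be told apart from those knockdowns. The split was larger in set 1, at 75 bases in the controls, 48 in each knockdown replicate 1 and 74.6 in each knockdown replicate 2. KRT5, a keratin of basal breast epithelium, stood at 1012 to 2622 TPM in ER-Src, at no more than 11.5 TPM in set 1 and at 0 in set 2. KRT14, KRT17, TP63 and CDH1 were likewise higher in ER-Src, while EPCAM overlapped (5.24 to 31.3 TPM against 3.1 to 17.4 in set 1). VIM, the intermediate filament of mesenchymal cells, was abundant in both lines. Other mesenchymal markers did not set MDA-MB-231 apart. CDH2 was higher in ER-Src (2.13 to 6.76 TPM) than in MDA-MB-231 (at most 1.47). ZEB1 stood at 2.37 to 5.74 TPM in ER-Src, 6.57 to 23.4 in set 1 and 0.82 to 1.44 in set 2. Each targeted gene was lower in its knockdown, although JUNB under ETH did not pass the threshold (log2 fold change -1.16, adjusted p 0.064) and STAT3 in MDA-MB-231 (-2.41) was given no adjusted p by DESeq2. The knockdowns were not separate for their targets. JUNB also fell in STAT3i under TAM (-2.41, adjusted p 2.5e-47, against -2.03 in JUNBi), and WWTR1, which encodes TAZ, was lower in YAPi (-1.14, adjusted p 4.76e-06) and TEADi (-0.89, adjusted p 5.96e-06) of set 1.

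A collagen was counted as expressed in a group where both libraries had a TPM of at least 1. By this measure 19 of the 43 were expressed in at least 1 of the 18 groups: 5 fibrillar, 4 basement membrane and 10 other collagens. COL4A1, COL4A2, COL12A1, COL16A1 and COL8A1 were expressed in all 18. The other 24 included the type I chain COL1A2, the type II and type III chains COL2A1 and COL3A1, both type XI chains and COL24A1 among the fibrillar genes, none above 2.94 TPM in any library. COL4A3 and COL4A4, the type IV chains best known from kidney and lung basement membranes, did not exceed 0.71 TPM, and the 16 others (COL9A1, COL9A3, COL14A1, COL19A1, COL20A1, COL21A1, COL22A1, COL6A5, COL6A6, COL15A1, COL8A2, COL10A1, COL23A1, COL25A1, COL26A1 and COL28A1) did not exceed 1.18 TPM.

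**Figure D1:**
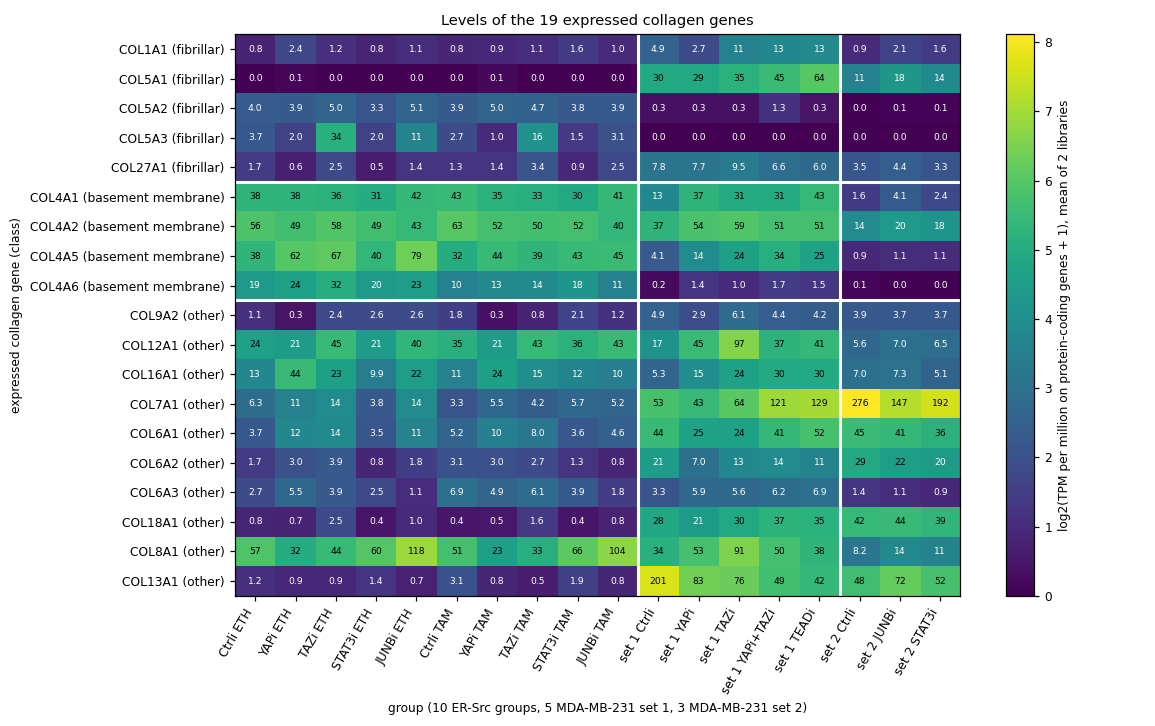
Mean coding TPM of the 2 libraries in each of the 18 groups (columns) for the 19 expressed collagens (rows, by class), with colour on a log2 scale after adding 1 and the value printed in each cell. A type IV chain or COL8A1 has the highest mean in each ER-Src group. In MDA-MB-231 it is COL13A1 or COL7A1, except in TAZi of set 1, where COL12A1 is highest.

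In ER-Src, type IV chains were the largest class of collagen TPM in every group but those of JUNBi. There the other collagens held a mean of 50.7% under ETH and 53.7% under TAM, against 44.3% and 43.0% for type IV. Type IV chains made 42.6% to 59.996% of the summed collagen TPM (median 51.3% over 20 libraries), fibrillar collagens 2.36% to 11.8% and the others 36.4% to 54.1%. By the median TPM over the 20 libraries the order was COL4A2 (13.0), COL8A1 (12.6), COL4A5 (10.985), COL4A1 (9.16), COL12A1 (8.51), COL4A6 (4.88) and COL16A1 (3.56), and each neighbour overlapped the next in range. On the coding scale COL8A1 came first, with a median of 54.0 and a range of 21.1 to 120 coding TPM, ahead of COL4A2 with 52.2. MDA-MB-231 cells differed in kind. In the set 1 controls COL13A1, a transmembrane collagen, stood at 200 and 202 coding TPM and COL7A1, the anchoring fibril chain, at 57.0 and 49.1, and in set 2 COL7A1 led at 135 to 347 and COL13A1 followed at 47.1 to 79.9. Type IV chains held a median of 10.7% of collagen TPM in the set 1 controls, 17.7% to 26.1% in the set 1 knockdowns and 2.56% to 6.18% in set 2. Levels were not tested between the lines or sets, whose libraries differ in composition.

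**Figure D2:**
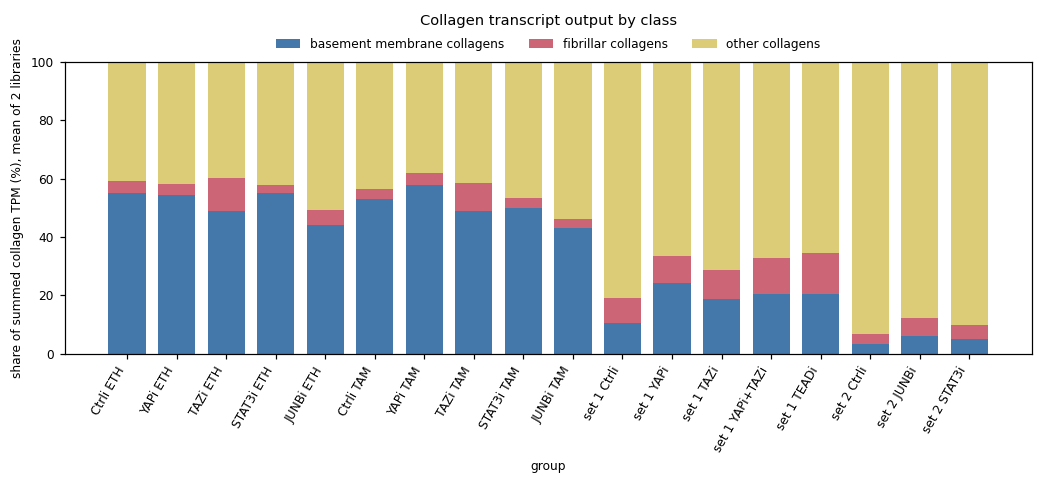
Share of the summed collagen TPM (%, mean of 2 libraries) taken by basement membrane, fibrillar and other collagens in each of the 18 groups. The basement membrane share is largest in the ER-Src groups and smallest in set 2 of MDA-MB-231.

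The lines also used different type V chains, which belong to the fibrillar class and sit inside or on the larger type I fibrils. COL5A1 was at 0 in 16 of the 20 ER-Src libraries and did not exceed 0.255 coding TPM in the rest, whereas it stood at 30.2 and 29.0 coding TPM in the set 1 controls and at 10.4 and 10.8 in the set 2 controls. COL5A3 was listed at 0 in all 16 MDA-MB-231 libraries and was detected in all 20 of ER-Src, at 0.17 to 8.61 TPM. COL5A2 stood at 2.60 to 5.56 coding TPM in ER-Src and at no more than 2.24 in MDA-MB-231. COL18A1, the multiplexin from which endostatin is cut, reached 15.7 to 49.6 coding TPM in MDA-MB-231 against at most 3.04 in ER-Src, with 18.5% of its exon bases shared with a gene on the opposite strand. Among the other expressed genes, COL1A1 (type I), COL27A1 (fibrillar) and COL9A2 (a FACIT chain) overlapped between the lines on the coding scale. In ER-Src they stood at 0.519 to 2.86, 0.485 to 3.46 and 0.212 to 4.396 coding TPM, and in MDA-MB-231 at 0.903 to 18.2, 3.11 to 11.8 and 2.22 to 6.77. COL4A6 did not overlap, at 10.2 to 33.2 coding TPM in ER-Src and at no more than 2.46 in MDA-MB-231.

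The type IV pair COL4A1 and COL4A2 includes the collagen with the highest median TPM in ER-Src, COL4A2. COL4A5 is the X-linked type IV gene that changed in both lines, and COL5A3 had the largest change in ER-Src. Sequences just upstream of these 3 loci are shown. They come from RefSeq promoter windows (GRCh38.p14), 5′ to 3′ on the strand named, cut back where an annotated exon began. Capitals mark CCAAT (or ATTGG, its complement strand) and GGGCGG, the CCAAT box and the GC box, which are general promoter elements. COL4A1 and COL4A2 start head to head with 126 bases between their starts, and the stretch chr13:110307158-110307257, plus strand, lies between them. The COL4A5 stretch is chrX:108439588-108439837, plus strand, and COL4A6 starts on the other strand 379 or 1415 bases away, depending on the transcript. The COL5A3 stretch is chr19:10010505-10010754, minus strand.
COL4A1 and COL4A2: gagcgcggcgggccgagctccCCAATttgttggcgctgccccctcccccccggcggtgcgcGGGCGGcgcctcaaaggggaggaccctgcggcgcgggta
COL4A5: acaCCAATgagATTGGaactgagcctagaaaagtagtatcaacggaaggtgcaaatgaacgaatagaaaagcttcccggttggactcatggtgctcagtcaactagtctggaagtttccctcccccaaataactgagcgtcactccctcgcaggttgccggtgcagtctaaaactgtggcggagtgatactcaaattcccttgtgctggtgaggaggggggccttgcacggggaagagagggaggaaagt
COL5A3: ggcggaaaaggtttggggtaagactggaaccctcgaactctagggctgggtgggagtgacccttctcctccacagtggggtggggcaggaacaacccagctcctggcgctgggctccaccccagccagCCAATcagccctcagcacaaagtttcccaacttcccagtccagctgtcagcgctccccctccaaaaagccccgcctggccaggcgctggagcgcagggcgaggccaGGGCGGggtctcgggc

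Windows of 250 bases before the start were on hand for 31 of the 43 collagens. TGANTCA, the AP-1 motif searched (N is any base, both strands), was in none of the 31, against 6.6% of 27305 promoters. GGAATG, the TEAD motif, was in the window of COL12A1 only, and 11.9% of all promoters held it. TTCNNNGAA, the STAT motif, was in that of COL7A1 only, against 6.78%. GGGCGG was in 18 of 31 (58.1%), against 42.3% of all promoters, and CCAAT in 8 of 31 (25.8%), against 33.0%. These are counts of letters in short windows near the start and say nothing of sites elsewhere.

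Differences below are log2 fold changes of normalized counts from DESeq2 with their standard errors (SE), called at a Benjamini-Hochberg adjusted p under 0.01 over all genes tested. TPM and normalized counts are scaled differently, so a ratio of TPM need not equal the fitted change. With the control siRNA, TAM changed 3 of the 22 collagens tested relative to ETH, where 6.21% of all genes tested were called. The median log2 fold change of the 22 was 0.26, against -0.01 over all genes. COL6A3, a chain of type VI filaments, rose from 0.63 and 0.75 TPM to 1.5 and 1.72 TPM (1.29, SE 0.27, adjusted p 6.26e-05). COL12A1, a fibril-associated collagen, rose from 7.06 and 5.42 to 7.86 and 8.22 TPM (0.49, SE 0.13, adjusted p 0.00416). COL4A6 fell from 5.15 and 4.8 to 2.54 and 2.33 TPM (-0.75, SE 0.17, adjusted p 0.000246). The TAM and ETH libraries of these 3 genes did not overlap. Their calls were fragile, since without any 1 of the 4 libraries COL12A1 (adjusted p 0.0696 to 0.497) and COL4A6 (0.0388 to 0.203) were lost, and COL6A3 was lost without Ctrli_ETH replicate 1 or either Ctrli_TAM library (0.0335 to 0.126). One fit over all ER-Src groups also ended the calls of COL6A3 (adjusted p 0.0127) and COL12A1 (0.0225).

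The 4 siRNAs were each compared with Ctrli under the same treatment. Under TAM, YAPi called 5 of 21 collagens tested (10.7% of all genes called), TAZi 3 of 19 (3.42%), STAT3i 3 of 18 (8.22%) and JUNBi 3 of 16 (6.90%). Under ETH, YAPi called 5 of 22 (11.6%), TAZi 7 of 21 (5.24%) and JUNBi 1 of 23 (2.80%). All 7 collagens called in TAZi under ETH were higher, where 2.60% of all genes tested were called higher. STAT3i under ETH called 0 of 27 (0.189%) with DESeq2, and 1 of 35 collagens had an unadjusted p under 0.05 (1.98% of all genes with a p), with 0 calls by edgeR. The median SE of the collagens tested there was 0.76, against 0.36 in YAPi, 0.33 in TAZi and 0.45 in JUNBi under ETH. The lack of calls with STAT3i under ETH is therefore no sign that collagens did not change. The median log2 fold change of the collagens tested under TAM was -0.09 (YAPi), 0.28 (TAZi), -0.20 for the STAT3 and -0.00 for the JUNB siRNA. Under ETH the medians were, in that order, -0.01, 0.55, -0.27 and 0.63, where the medians of all genes lay between -0.01 and 0.03. The 4 comparisons of a treatment share their Ctrli libraries. Under ETH same-numbered libraries deviated together. Blocked by that number, YAPi called 3 collagens (1122 of 14166 genes tested), TAZi 3 (404 of 12308) and STAT3i 0 (11 of 19578). JUNBi so blocked called 2 (532 of 14399 genes), with COL5A3 higher beside COL8A1.

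**Figure D3:**
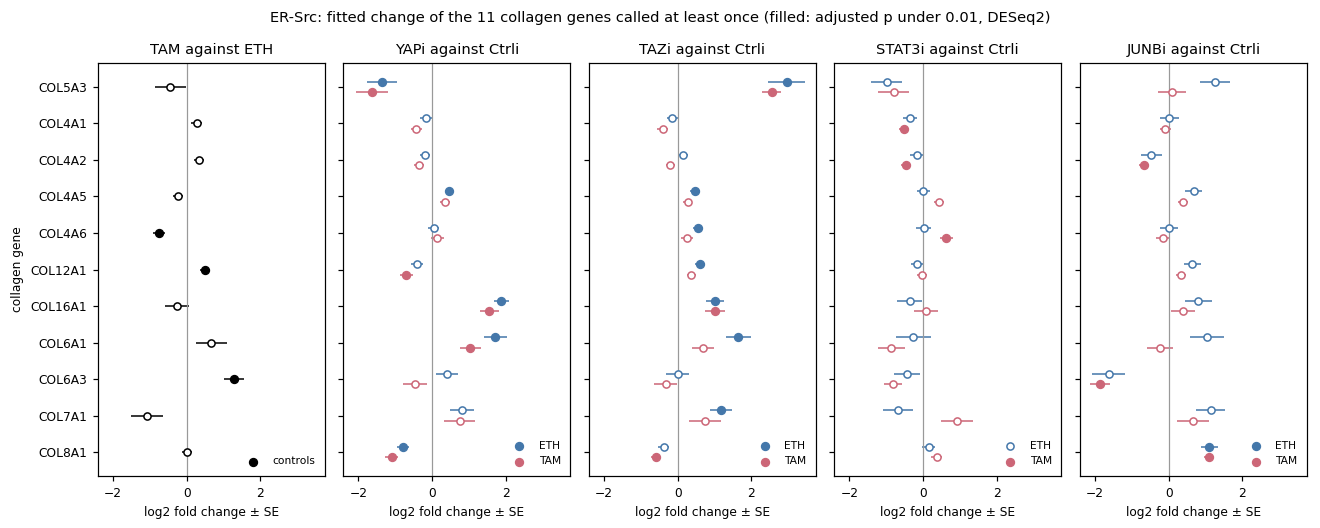
Log2 fold change with SE (horizontal axis) of the 11 collagens called at least once in ER-Src (rows), for TAM against ETH in the controls and for each siRNA against Ctrli under ETH (blue) and TAM (red); filled points have a DESeq2 adjusted p under 0.01. COL5A3 lies left of 0 in YAPi and far right in TAZi, and COL8A1 lies left in YAPi and right in JUNBi.

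Of the type IV chains of the basement membrane, COL4A1 and COL4A2 had called changes only downward in ER-Src and COL4A5 only upward, each in some of the comparisons. COL4A1 and COL4A2 are partners in the network present in nearly all basement membranes. Under TAM with STAT3i, COL4A1 went from 9.22 and 10.92 TPM in Ctrli to 8.88 and 7.79 TPM, and fell (-0.52, SE 0.15, adjusted p 0.00496). COL4A2 also fell on normalized counts (-0.46, SE 0.13, adjusted p 0.00642), from 1937 and 2239 to 1501 and 1521, but its TPM overlapped, at 13.71 and 15.31 in Ctrli and 13.67 and 15.28 in STAT3i. Both calls were lost without any 1 of the 4 libraries (adjusted p 0.0407 to 0.406 for COL4A1 and 0.0866 to 0.469 for COL4A2), with edgeR (0.0136 and 0.0180) and with TMM scaling (0.0169 and 0.0203) and in the fit over all groups (0.0235 and 0.111), and that of COL4A2 with effective lengths as offsets (0.150). With JUNBi under TAM, COL4A2 fell to 11.40 and 9.48 TPM, below both Ctrli libraries (-0.67, SE 0.14, adjusted p 3.6e-05). This call was lost without Ctrli_TAM replicate 2 or JUNBi_TAM replicate 1 (0.0338 to 0.133) and in the fit over all groups (0.0103). COL4A1 was not called with JUNBi, at 11.51 and 9.80 TPM.

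COL4A5 and COL4A6 share a locus on the X chromosome and form a second kind of type IV network found beneath some epithelia. COL4A6 rose with STAT3i under TAM, from 2.54 and 2.33 to 5.17 and 4.95 TPM (0.63 on normalized counts, SE 0.18, adjusted p 0.00501). Under ETH with TAZi, COL4A6 rose from 5.15 and 4.8 to 8.10 and 7.64 TPM (0.55, SE 0.14, adjusted p 0.00319). COL4A5 rose there from 10.21 and 9.56 to 16.94 and 15.78 TPM (0.47, SE 0.13, adjusted p 0.00623), and with YAPi under ETH to 15.11 and 11.95 TPM (0.47, SE 0.13, adjusted p 0.00309). The highest COL4A5 levels, 19.80 and 20.23 TPM, stood in JUNBi under ETH, where the gene was not called. In each of these 4 called comparisons every knockdown library lay above both controls. Each call was lost without any 1 of its 4 libraries, with adjusted p of 0.115 to 0.304 for COL4A6 in STAT3i, 0.145 to 0.621 for COL4A6 in TAZi, 0.112 to 0.821 for COL4A5 in TAZi and 0.0429 to 0.420 for COL4A5 in YAPi. With edgeR, COL4A5 in YAPi (0.0151) and both genes in TAZi (0.0224 for COL4A5 and 0.0115 for COL4A6) missed the threshold too. With the replicate block the 3 ETH calls were lost, at 0.0187 for COL4A5 in YAPi and at 0.0450 and 0.0480 for COL4A5 and COL4A6 in TAZi.

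COL5A3, a chain of type V fibrils, had the largest called change of any collagen in ER-Src, and it went in opposite directions in the knockdowns of the 2 paralogs. Under TAM it stood at 0.59 and 0.65 TPM in Ctrli, 4.59 and 3.50 in TAZi and 0.25 and 0.17 in YAPi. Under ETH the levels were 0.67 and 1.20 TPM in Ctrli, 8.61 and 8.07 in TAZi and 0.57 and 0.33 in YAPi. TAZi libraries lay above, and YAPi libraries below, both Ctrli libraries in each treatment. A rise was not confined to TAZi. COL5A3 was expressed in 3 groups, so not in the TAZi groups alone. In JUNBi under ETH it was called higher with libraries blocked by number, though not in the main DESeq2 fit. With TAZi the rise under TAM was 2.55 (SE 0.25, adjusted p 7.02e-21), which held in all 10 alternatives tried, and 2.95 under ETH (SE 0.51, adjusted p 7.01e-07), which was lost without either TAZi library (0.0214 and 0.0291). The fall with YAPi was -1.63 under TAM (SE 0.43, adjusted p 0.00207) and -1.36 under ETH (SE 0.41, adjusted p 0.00889). It rested on few reads, 28.0 to 110 normalized counts per library under TAM, and was lost without any 1 of the 4 libraries in each treatment (0.0471 to 0.320 and 0.0151 to 0.727), and under ETH also with edgeR (0.0333), TMM scaling (0.0104), effective lengths (0.120) or the replicate block (0.0816). Of the exon bases of COL5A3, 3.98% are shared with a gene on the opposite strand.

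YAPi and TAZi were also compared directly, a comparison added after the data were seen. Between the 2 knockdowns, 2 of 20 collagens were called under TAM (6.13% of all genes) and 3 of 21 under ETH (4.25%). COL5A3 was lower in YAPi than in TAZi by 4.18 on the log2 scale under TAM (-4.18, SE 0.27, adjusted p 4.98e-50) and by 4.27 under ETH (-4.27, SE 0.22, adjusted p 3.47e-78), and both calls held in all alternatives. COL12A1 was lower too (-1.07, SE 0.15, adjusted p 1.77e-10 under TAM, and -1.02, SE 0.17, adjusted p 1.61e-07 under ETH, the latter lost with edgeR at 0.0113 and without TAZi_ETH replicate 1 at 0.0121). COL16A1 was higher in YAPi under ETH (0.87, SE 0.20, adjusted p 0.000689), but not without any 1 of the 4 libraries (0.0320 to 0.159) or with edgeR (0.0114).

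Of the FACIT collagens, which decorate fibrils, COL12A1 followed the direction of COL5A3 and COL16A1 did not. COL12A1 stood under TAM at 7.86 and 8.22 TPM in Ctrli, 5.71 and 3.70 in YAPi and 11.60 and 9.53 in TAZi. It fell with YAPi under TAM (-0.70, SE 0.17, adjusted p 0.000594) and rose with TAZi under ETH, from 7.06 and 5.42 to 11.94 and 9.81 TPM (0.61, SE 0.13, adjusted p 0.000229). The fall was lost without either Ctrli_TAM library or YAPi_TAM replicate 2 (0.0341 to 0.215) and with edgeR (0.0146), and the rise without any 1 of the 4 libraries (0.0128 to 0.173). COL16A1 was higher in both knockdowns. Under ETH it rose from 3.59 and 2.97 TPM in Ctrli to 9.5 and 9.69 in YAPi (1.88, SE 0.21, adjusted p 4.33e-17) and to 4.54 and 6.85 in TAZi (1.01, SE 0.26, adjusted p 0.00229). Under TAM it rose from 2.19 and 2.94 TPM to 5.66 and 4.65 in YAPi (1.55, SE 0.26, adjusted p 6.3e-08) and 3.53 and 3.86 in TAZi (1.01, SE 0.27, adjusted p 0.00702). Both YAPi rises held in all 10 alternatives. The TAZi rises did not, since each was lost whenever a library was left out and the gene still had an adjusted p (0.0718 to 0.538 under ETH and 0.0966 to 0.629 under TAM), and with effective lengths they shrank to 0.80 and 0.45 (adjusted p 0.0557 and 0.571). With edgeR the one under TAM also missed the threshold (0.0111), and with the replicate block so did the one under ETH (0.0483).

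COL8A1, a short-chain network collagen, changed in opposite directions in YAPi and JUNBi. Under TAM it stood at 11.67 and 12.18 TPM in Ctrli, 5.81 and 4.27 in YAPi, 8.21 and 8.32 in TAZi, 18.13 and 18.94 in STAT3i and 31.07 and 22.96 in JUNBi. Every YAPi and TAZi library was below both controls and every STAT3i and JUNBi library above them. It fell in YAPi (-1.10, SE 0.17, adjusted p 1.28e-08) and in the TAZi libraries (-0.58, SE 0.14, adjusted p 0.00178), it rose with JUNBi (1.10, SE 0.14, adjusted p 2.1e-13), and it was not called with STAT3i (adjusted p 0.0702). The YAPi and JUNBi changes held in all 10 alternatives, while the TAZi change was lost without any 1 of the 4 libraries (0.0340 to 0.442), with edgeR (0.0153) and in the fit over all groups (0.0111). Under ETH the levels were 16.64 and 13.05 TPM in Ctrli, 8.76 and 5.31 in YAPi and 31.77 and 28.23 in JUNBi. It fell there with YAPi (-0.79, SE 0.17, adjusted p 0.000106, lost without either Ctrli_ETH library or YAPi_ETH replicate 2 at 0.0307 to 0.0732, and with edgeR at 0.0106). It rose with JUNBi (1.11, SE 0.22, adjusted p 6.6e-05), a call lost without either Ctrli_ETH library (0.342 and 0.429) and with edgeR (0.0651).

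Type VI filaments combine COL6A1, COL6A2 and COL6A3 chains. COL6A1 rose with YAPi, under ETH from 0.95 and 0.97 to 2.86 and 2.59 TPM (1.72, SE 0.31, adjusted p 9.26e-07) and under TAM from 1.20 and 1.21 to 2.38 and 2.18 TPM (1.04, SE 0.28, adjusted p 0.00226). It also rose with TAZi under ETH, to 2.74 and 4.00 TPM (1.65, SE 0.33, adjusted p 4.13e-05). All knockdown libraries stood above both controls, and COL6A2 stayed at 0.15 to 1.01 TPM in ER-Src with no call. Leaving out libraries ended the COL6A1 calls of YAPi under TAM (any of the 4, 0.0529 to 0.258), of YAPi under ETH (Ctrli_ETH replicate 1 or YAPi_ETH replicate 1, 0.0104 and 0.0155) and of TAZi (Ctrli_ETH replicate 1 or either TAZi library, 0.0329 to 0.164). COL6A3 moved with JUNBi instead. It fell under TAM from 1.5 and 1.72 to 0.45 and 0.46 TPM (-1.86, SE 0.27, adjusted p 2.75e-10), in all 10 alternatives, and under ETH its levels were 0.36 and 0.19 TPM against 0.63 and 0.75 in Ctrli, which was not called (-1.62, SE 0.45, adjusted p 0.01004). COL7A1, the anchoring fibril chain, rose with TAZi under ETH from 1.41 and 1.78 to 3.64 and 3.39 TPM (1.17, SE 0.29, adjusted p 0.0021). That call was lost without Ctrli_ETH replicate 1 or either TAZi library (0.125 to 0.622), with edgeR (0.0119), with the replicate block (0.0245) and in the fit over all groups (0.0218).

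**Figure D4:**
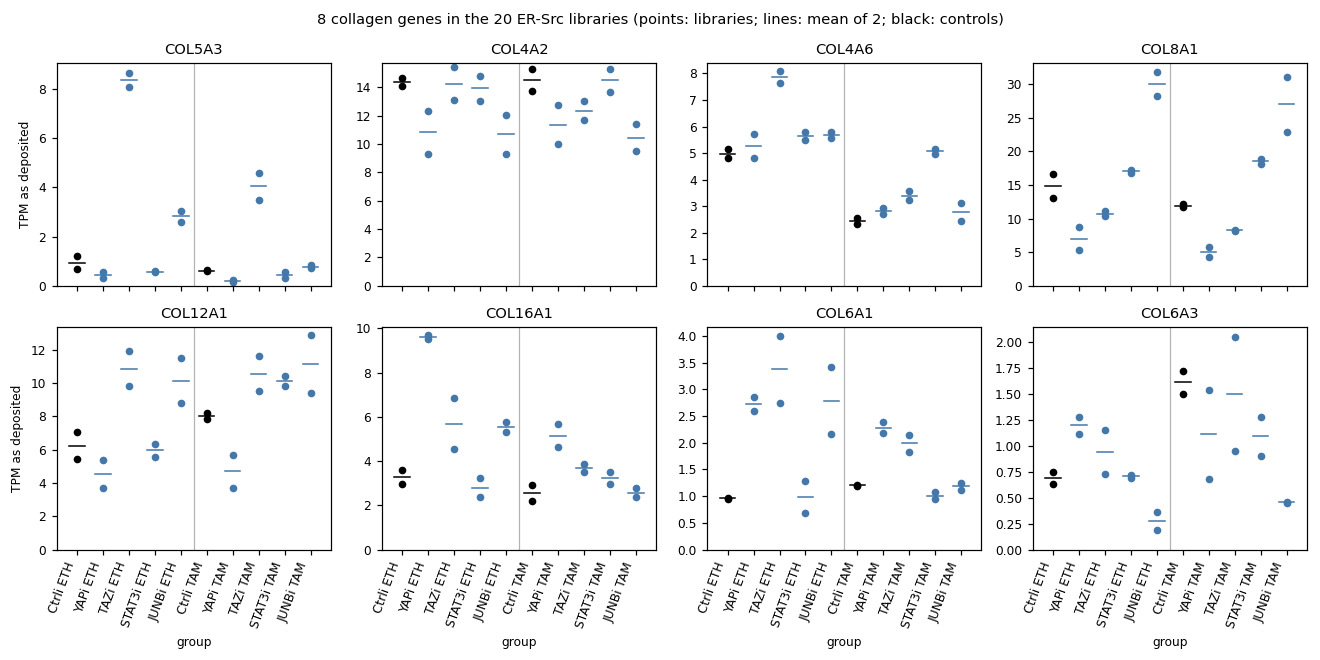
TPM as deposited (vertical axes) of 8 collagens in the 20 ER-Src libraries, by group, with ETH groups left of the grey line and TAM groups right of it; points are libraries, lines are means of 2 and controls are black. COL5A3 stands out in TAZi, COL8A1 in JUNBi and COL16A1 in YAPi under ETH.

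Whether a knockdown acted differently under TAM and ETH was tested as an interaction. With DESeq2, 0 of 22 collagens were called for YAPi (0.498% of all genes), 0 of 7 for TAZi (1.60%), 0 of 24 in the STAT3i test (1.34%) and 0 of 25 in that of JUNBi (0.288%). At an unadjusted p under 0.05 there were 1 of 38 collagens with a p, 2 of 36, 4 of 38 and 2 of 37, where 2.34%, 4.06%, 3.34% and 2.59% of all genes with a p were under it, and edgeR called 0 collagens in each. The intervals of these differences were wide. For COL5A3 the change under TAM minus that under ETH was -0.28 with YAPi (95% interval -1.45 to 0.88) and -0.43 with TAZi (-1.16 to 0.30), on the log2 scale. For COL8A1 it was -0.32 with YAPi (-0.81 to 0.17) and -0.03 with JUNBi (-0.48 to 0.42), and for COL6A3 with JUNBi -0.27 (-1.19 to 0.65). The nearest to a call was COL7A1 with STAT3i, at 1.58 (0.46 to 2.70, adjusted p 0.18). A threshold in one treatment and not in the other is therefore no difference between them.

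Collagens are in many tissues products of fibroblasts, so 5 fibroblast markers (PDGFRA, PDGFRB, DCN, LUM and FAP) were read beside these results. Under ETH their summed level ran from 61.5 to 65.4 TPM in Ctrli, 140.9 to 184.3 in YAPi and TAZi and 35.6 to 54.7 in STAT3i and JUNBi. Under TAM it ran from 74.7 to 77 TPM in Ctrli, 210.6 to 268.2 in YAPi and TAZi and 57.5 to 89.7 in STAT3i and JUNBi. DCN, which encodes decorin, a proteoglycan that binds collagen fibrils, made most of it, with 67.28 and 64.36 TPM in Ctrli, 259.3 and 203.2 in YAPi and 202.7 and 209.0 in TAZi under TAM. The defining receptors were near 0, with PDGFRA at no more than 0.62 and PDGFRB at no more than 0.33 TPM in ER-Src. DCN was called higher in YAPi and TAZi under both treatments and lower in JUNBi under TAM (-0.52, adjusted p 0.00312). Of the 5 markers, 1 of 4 tested was called higher in YAPi and 2 of 4 in TAZi (DCN and LUM) under TAM, and 1 of 3 in each under ETH. STAT3i under either treatment and JUNBi under ETH called none. FAP rose with TAM (1.39, adjusted p 2.9e-07) and, under TAM, with JUNBi (0.91, adjusted p 2.31e-05). In MDA-MB-231 the 5 summed to 0.32 to 6.29 TPM. PDGFRB, the single marker called in set 1 against Ctrli, was higher in TAZi (1.55, adjusted p 0.00231) and YAPi_TAZi (2.32, adjusted p 3.65e-09), as COL1A2 and COL4A4 were. Basal epithelial markers (KRT5, KRT14, KRT17, TP63, CDH1 and EPCAM) summed under ETH to 2337 to 2373 TPM in Ctrli and 3857 to 4242 in TAZi, where the called collagens were higher, and to 2027 to 2805 in the other knockdowns. Under TAM the sum was 2564 to 2722 TPM in Ctrli, 3207 to 3329 in TAZi, 3186 to 3423 in STAT3i and 2439 to 2889 in YAPi and JUNBi. Whether the marker changes bear on the collagens was not tested, and in bulk RNA fewer cells of a type and less RNA per cell cannot be told apart.

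In set 1 of MDA-MB-231, YAPi called 6 of 22 collagens tested against Ctrli (24.4% of all genes called), TAZi 12 of 25 (32.8%), YAPi_TAZi 9 of 30 (35.6%) and TEADi 8 of 23 (27.5%). These comparisons carry the difference in library composition between controls and knockdowns and share the same 2 controls. The median log2 fold changes of the collagens were 0.18, 0.28, 0.69 and 0.84, against -0.02, 0.02, 0.06 and 0.00 over all genes. Of the 22 collagens tested in all 4 comparisons, 5 were called in 1 direction in each of them (22.7%), against 16.9% of the 15755 genes tested in all 4. COL13A1, the transmembrane collagen, stood at 200 and 202 coding TPM in Ctrli, 102 and 63.2 in YAPi, 86.9 and 64.7 in TAZi, 53.6 and 45.3 in YAPi_TAZi and 48.6 and 34.9 in TEADi. It was lower by -1.42 (SE 0.16), -1.76 (SE 0.12), -2.11 (SE 0.13) and -2.46 (SE 0.17), with adjusted p between 5.83e-18 and 1.42e-60. COL6A2 was lower as well, at 20.6 and 21.0 coding TPM in Ctrli and 5.78 to 17.8 in the 8 knockdown libraries (-1.82, -1.44, -1.25 and -1.02).

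The collagens called higher in all 4 were COL12A1, COL4A1 and COL4A5. COL12A1 stood at 17.7 and 16.1 coding TPM in Ctrli, 46.9 and 43.0 in YAPi, 84.8 and 109 in TAZi, 42.0 and 31.4 in YAPi_TAZi and 40.9 and 40.9 in TEADi (1.26, 2.20, 0.89 and 1.13). COL4A1 stood at 13.3 and 12.5 in Ctrli and at 29.8 to 44.3 in the knockdowns (1.37, 0.91, 0.90 and 1.48). COL4A5 stood at 3.99 and 4.15 in Ctrli and at 14.1 to 40.5 in the knockdowns (1.93, 2.24, 2.50 and 2.67). For these 3 genes all 8 knockdown libraries lay above both controls, with no overlap. COL4A2, the partner of COL4A1, was at 37.8 and 37.2 coding TPM in Ctrli and 43.5 to 65.3 in the knockdowns and was not called.

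Other collagens were called in some of the 4. COL7A1 was higher in YAPi_TAZi (139 and 103 coding TPM against 57.0 and 49.1, 1.26, SE 0.09) and in TEADi (143 and 116, 1.78, SE 0.14). The size of these 2 changes depended on the processing, and among the alternatives they went down to 0.77 and 0.95, still called. In TAZi COL7A1 was higher by 0.45 (SE 0.12, adjusted p 0.00054), a call that turned to -0.09 with effective lengths (adjusted p 0.746). COL16A1 was higher in TAZi, YAPi_TAZi and TEADi (1.17, 1.96 and 2.63). COL5A1, the type V chain of this line, was higher in TEADi (0.97, SE 0.13, adjusted p 1.99e-12) and COL8A1 in TAZi (1.08, SE 0.09, adjusted p 4.28e-29). COL6A1 was lower in YAPi (-0.88, SE 0.22) and TAZi (-1.06, SE 0.20). COL1A2 and COL4A4 in TAZi and YAPi_TAZi, and COL10A1 in TAZi, were also called higher on at most 42.2 normalized counts per library. COL13A1 and COL4A5 kept their calls in all 4 comparisons under every alternative, as did COL12A1 in all but YAPi_TAZi. Leaving out either Ctrli library ended the calls of COL6A2 in all 4 comparisons (adjusted p 0.0253 to 0.233, in TEADi also without TEADi replicate 2), of COL4A1 in TAZi (0.0230 and 0.0394) and YAPi_TAZi (0.0563 and 0.0780), of COL12A1 in YAPi_TAZi (0.0166 and 0.0651) and of COL16A1 in YAPi_TAZi (0.0368 and 0.0468). The same held for COL6A1 in TAZi (0.0328 and 0.0356), and for COL6A1 in YAPi, which was also lost without YAPi replicate 2 (0.0164 to 0.109). COL7A1 in TAZi was lost without either control or TAZi replicate 1 (0.0432 to 0.394) and with TMM scaling (0.0526), and COL16A1 in TAZi without any 1 of the 4 libraries (0.0795 to 0.455) and with TMM scaling (0.0725). COL6A2 was further lost in YAPi_TAZi with effective lengths (0.0467) and in TEADi in the fit over all groups (0.0190). The 5 calls on low counts each failed without at least 3 of their 4 libraries.

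Each set 1 knockdown was also compared with the 6 libraries of the other 3 knockdowns, which leaves out the controls. Each side then holds both compositions, 1 in its replicate 1 libraries and 1 in its replicate 2 libraries, and the test pools them. TAZi called 1 of 14 collagens (0.466% of all genes) and TEADi 1 of 14 (2.07%). YAPi (0.276%) and YAPi_TAZi (1.23%) called 0 of 14 each with DESeq2, with 6 and 1 of 34 collagens at an unadjusted p under 0.05, against 4.4% and 6.08% of all genes with a p. COL12A1 was higher in TAZi than in the other knockdowns, at 534 and 533 normalized counts against 213 to 287 (1.11, SE 0.16, adjusted p 1.58e-08, or 9.94e-07 when replicates were blocked by number). COL5A1 was higher in TEADi, at 479 and 426 against 177 to 285 (1.07, SE 0.22, adjusted p 0.00012, and 0.000517 with the block). With that block the counts of collagens called were again 0 for YAPi and YAPi_TAZi and 1 each for TAZi and TEADi. Neither gene overlapped with the other knockdowns. edgeR called 0 in all 4 comparisons, with adjusted p of 0.0406 for COL12A1 and 0.0198 for COL5A1. COL12A1 was lost without TAZi replicate 2 (0.0148) and COL5A1 without either TEADi library (0.0356 and 0.0906). COL13A1, COL4A1, COL4A5 and COL6A2, which differed from Ctrli in all knockdowns, were called in none of these comparisons.

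**Figure D5:**
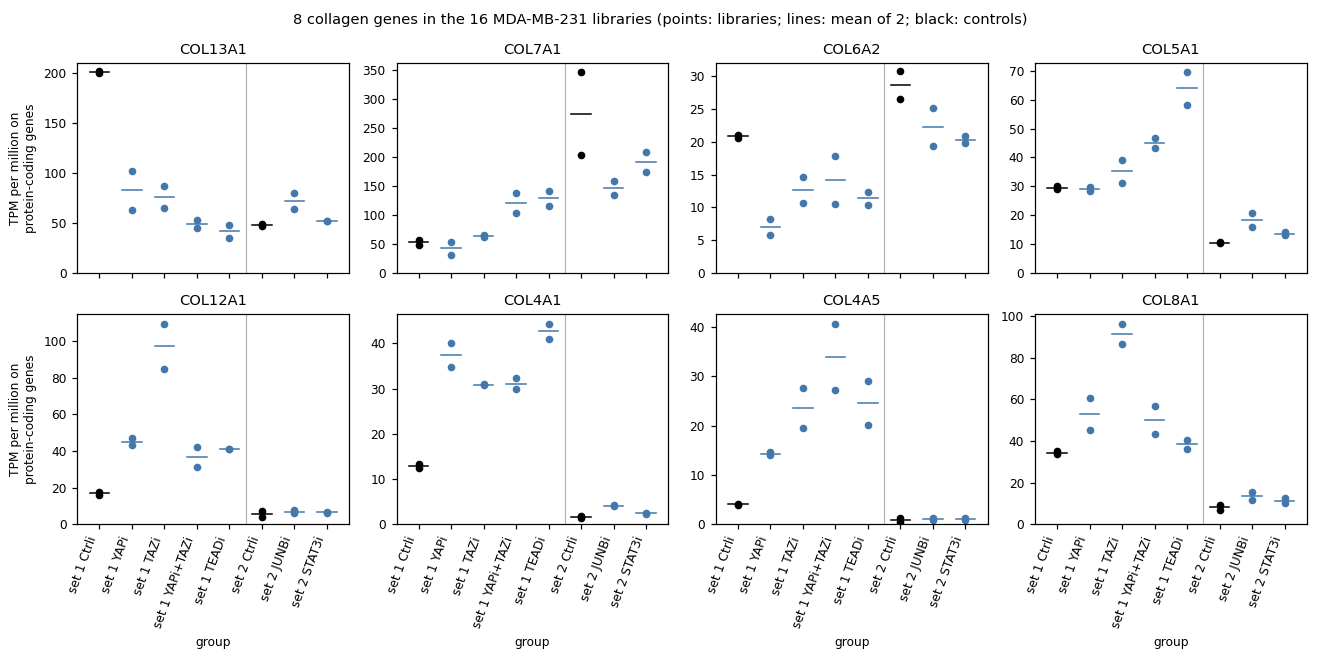
Coding TPM (vertical axes) of 8 collagens in the 16 MDA-MB-231 libraries, set 1 left of the grey line and set 2 right of it; points are libraries, lines are means of 2 and controls are black. In set 1, COL13A1 is lower and COL12A1, COL4A1 and COL4A5 are higher in all knockdown libraries than in the controls, which differ from them in library composition.

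In set 2, whose controls and knockdowns had the same composition, JUNBi called 0 of 12 collagens (3.41% of all genes) and STAT3i 0 of 3 (0.497%) with DESeq2, and edgeR called 0 in both. At an unadjusted p under 0.05 there were 5 of 30 collagens with a p in JUNBi (9.27% of all genes with a p) and 2 of 29 in STAT3i (3.05%). With JUNBi, COL4A1 stood at 3.98 and 4.27 coding TPM against 1.88 and 1.32 in Ctrli (1.08, SE 0.36, adjusted p 0.039), and COL7A1 at 135 and 159 against 204 and 347 (-0.66, SE 0.22, adjusted p 0.039). In both genes the libraries did not overlap, and neither passed the threshold. COL8A1 and COL6A3, which changed with JUNBi in ER-Src, were at 11.5 and 15.6 against 9.43 and 6.89 coding TPM, and at 0.713 and 1.49 against 1.93 and 0.967, with no call for COL8A1 and no adjusted p for COL6A3. Without Ctrli replicate 3 some collagens passed the threshold with each siRNA. That fit holds 1 control library, and its share over all genes is not given here.

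Collagens need enzymes, chaperones and receptors, and a list of 47 such genes was read in the same fits. In ER-Src, 8 of 41 tested were called between TAM and ETH, 11 of 40 in YAPi, 4 of 40 in TAZi, 5 of 40 in STAT3i and 9 of 36 in JUNBi under TAM, and 8 of 38, 5 of 38, 0 of 43 and 2 of 38 under ETH, against the shares of all genes given above. With the replicate block the ETH counts were 4 of 37, 1 of 36, 0 of 43 and 4 of 38, against the blocked counts of all genes given with the collagens. LOX, lysyl oxidase, which cross-links collagen, had the largest change. With the control siRNA it rose from 4.00 and 3.09 TPM under ETH to 16.91 and 14.25 TPM under TAM (2.43, SE 0.15, adjusted p 6.9e-56). Under TAM it fell with YAPi to 3.13 and 2.03 TPM (-2.46), with STAT3i to 7.17 and 5.97 TPM (-1.67) and with TAZi to 11.83 and 8.21 TPM (-0.76). With JUNBi it was not called under TAM, at 17.47 and 13.15 TPM. Under ETH it rose with JUNBi to 9.25 and 5.07 TPM (1.01, SE 0.27, adjusted p 0.00903). With DESeq2 it was the single gene of the list with a called interaction in all 4 knockdowns: the change under TAM was lower than that under ETH by -2.00 with YAPi (SE 0.25, adjusted p 5.2e-12), -1.63 with STAT3i, -1.24 with JUNBi and -1.06 with TAZi. edgeR called 0 of 15732 genes in the JUNBi interaction, so LOX was not called there. The other alternatives are not given for LOX. FN1, fibronectin, also had a called interaction with JUNBi (-0.91, SE 0.21, adjusted p 0.00524 with DESeq2). No collagen had a called interaction.

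After LOX, the called genes with the largest changes differed between the siRNAs. With YAPi under TAM they were LOXL2, a relative of LOX (-1.12, SE 0.19), ITGA1, the alpha chain of a collagen-binding integrin (-1.06, SE 0.22), and FN1, fibronectin (0.95, SE 0.12). Under ETH FN1 rose with YAPi as well (1.59, SE 0.13), and its interaction was not called. With TAZi under TAM they were P4HA2, a prolyl 4-hydroxylase subunit (-0.66, SE 0.17), SPARC, a collagen-binding glycoprotein (0.65, SE 0.15), and DDR1, a receptor kinase for collagen (0.48, SE 0.12). With STAT3i under TAM ITGB1, the beta chain of the collagen-binding integrins (0.79, SE 0.13), and PLOD2, a lysyl hydroxylase (0.63, SE 0.14), rose, and FKBP10, a foldase for procollagen, fell (-0.62, SE 0.16). With JUNBi under TAM P3H2, a prolyl 3-hydroxylase, rose (1.82, SE 0.32), while ITGA10, another integrin alpha chain (-1.74, SE 0.46), LOXL2 (-1.01, SE 0.19) and PLOD1, a lysyl hydroxylase (-0.96, SE 0.17), fell. In set 1 of MDA-MB-231, 17 of 42 were called in YAPi (24.4% of all genes), 22 of 43 in TAZi (32.8%), 21 of 43 in YAPi_TAZi (35.6%) and 17 of 42 in TEADi (27.5%) against Ctrli. Against the other knockdowns, TEADi called 4 of 30 (2.07%): LOXL4 (1.61), ITGA2 (1.38) and BMP1, which trims procollagens (1.20), were higher and COLGALT1, which adds galactose to hydroxylysine, was lower (-1.28). YAPi_TAZi called 1 of 30 there (1.23% of all genes), FN1, which was higher (1.78, SE 0.18, adjusted p 5.63e-19 with DESeq2). YAPi called 0 of 27 and TAZi 0 of 30. In set 2, PLOD1 alone was called with JUNBi (1 of 25, 3.41% of all genes), lower by -0.77 (adjusted p 0.00501).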

How the data were processed

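The labels and the study's methods name total RNA, the TruSeq Ribo Profile Mammalian kit and a HiSeq instrument. The libraries were not alike in their share of RNAs that lack a poly(A) tail. These RNAs took 9.43% to 11.7% of each ER-Src library's expected counts, and 8.71% to 11.8% for set 1 knockdowns. Their share was only 0.0028% to 0.0041% for set 1 controls, and 0.0036% to 0.011% for set 2. Whether every library was made with the named kit was not tested. The authors trimmed reads, used STAR to align them against the GENCODE v30 transcriptome (hg38), allowing at most 20 positions per read, and ran RSEM to estimate gene abundance, with versions not given in the sources used here. The authors deposited, for each library, RSEM expected counts, which are estimated counts per gene, not normalized and not always whole. The authors also deposited TPM, scaled by effective length to a fixed library total, and the lengths themselves in bases. Whether counting used strand is not stated, so reads of overlapping genes on opposite strands cannot be told apart.

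Each table held 61471 identifiers, of which 60725 Ensembl genes were used and 746 others left out. Expected counts were rounded. DESeq2 1.42.0 under R 4.3.3 was run anew for each comparison, on all genes, with default size factors, a Wald test and Benjamini-Hochberg adjustment, calls at adjusted p under 0.01. The set 1 YAPi_TAZi run used a local trend of dispersion because the parametric one could not be fitted. Interactions used 4 groups. The rule for named genes took every collagen with a TPM of at least 1 in both libraries of a group, every collagen called within ER-Src, set 2, an interaction or among the set 1 knockdowns, those called in 1 direction in all 4 set 1 comparisons with Ctrli, and up to 4 called pathway genes of largest change per siRNA. Same-numbered libraries deviated together in each of the 6 pairs of set 1 knockdowns (r of 0.756 to 0.818) and each of the 10 pairs of ER-Src groups under ETH (0.179 to 0.660), so there the numbers pair the libraries, from the data and not the labels. Under TAM r was -0.382 to 0.385. The rule for members, the lists and the tests were chosen with earlier results of these data known, so no pattern here is independent support for those results. Alternatives were edgeR (4.0.16), TMM scaling, a mean count of at least 10, effective lengths, 1 fit over all groups, the replicate number as a block and leaving out each library. The direct comparison of YAPi with TAZi was added after the data were seen. The scripts were tested on simulated data. Promoter windows came from RefSeq (GRCh38.p14) and 31 of 43 collagens matched. Tables were made in Python 3.11.15 with pandas 2.3.3.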

Additional observations from a re-analysis of the deposited data

Results flagged for a closer look

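Several collagens lay on opposite sides of their controls with the same siRNA in ER-Src and MDA-MB-231, every knockdown library above both controls in one line and below them in the other. The change passed the threshold in both lines for COL12A1 (YAPi under TAM), COL6A1 (YAPi under either treatment and TAZi under ETH) and COL8A1 (TAZi under TAM). In the other pairs it passed in 1 line only, as said beside each. Where it passed in both, the ER-Src call was lost in some of the 10 alternatives. These losses ran from 2 for COL6A1 (YAPi under ETH) to 7 for COL8A1. With 2 libraries on each side, few genes overlap. Among collagens tested, 7 of 21 overlapped in YAPi under TAM and 4 of 22 in set 1 YAPi. How many of all genes lay on opposite sides in this way was not counted. These differences between lines were not tested, since the lines were fitted separately and the set 1 controls differ from the knockdowns in library composition. Differences are log2 fold change in ER-Src minus that in MDA-MB-231.

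With YAPi, COL4A1 differed by -1.80 under TAM (-0.43, not called, against 1.37 in set 1). COL12A1 differed by -1.96 under TAM (-0.70 against 1.26) and by -1.68 under ETH (-0.42, not called). COL6A1 differed by 1.92 under TAM (1.04 against -0.88) and by 2.60 under ETH. COL8A1 differed by -1.499 under TAM (-1.10 against 0.40) and by -1.19 under ETH (-0.79), and was not called in set 1. COL6A2 differed by 2.80 under ETH (0.98, not called, against -1.82).

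With TAZi, COL8A1 differed by -1.66 under TAM (-0.58 against 1.08) and by -1.47 under ETH (-0.38, not called). COL6A1 differed by 1.75 under TAM (0.68, not called, against -1.06) and by 2.71 under ETH (1.65). COL6A2 differed by 2.63 under ETH (1.19, not called, against -1.44) and COL4A1 by -1.32 under TAM (-0.41, not called, against 0.91). With STAT3i, COL4A1 differed by -0.96 under TAM (-0.52 in ER-Src against 0.44 in set 2). In set 2 only 3 collagens were given an adjusted p with STAT3i, and none was called.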

How the results depend on the processing

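The number of collagens called depended on the setting in several comparisons. With edgeR it was 1 in place of 3 for TAZi under TAM, 2 in place of 5 for YAPi and 4 in place of 7 for TAZi under ETH, 0 in place of 1 for JUNBi under ETH (where edgeR called 1 gene in all, DESeq2 421 and the fit over all groups 1752), 0 in place of 1 for TAZi and TEADi among the set 1 knockdowns, and 1 in place of 3 for YAPi against TAZi under ETH. JUNBi under ETH gave 2 with TMM scaling or the count filter, 4 with effective lengths and 8 in the fit over all groups. That fit gave 1 in place of 3 for TAM against ETH and 1 in place of 0 for JUNBi in set 2, as effective lengths also did there. COL7A1 in set 1 TAZi reversed to -0.092 with effective lengths. Over all genes, edgeR and DESeq2 called 195 and 470 for TAZi under TAM, 491 and 739 for TAZi under ETH, 0 and 37 for STAT3i under ETH, 0 and 272 for JUNBi and 0 and 10 for STAT3i in set 2, 15 and 78, 5 and 71, 56 and 221, and 0 and 46 in the interactions of YAPi, TAZi, STAT3i and JUNBi, 0 and 25, 1 and 47, 9 and 130, and 36 and 220 among the set 1 knockdowns (YAPi, TAZi, YAPi_TAZi, TEADi), and 414 and 920 under TAM and 182 and 598 under ETH for YAPi against TAZi. STAT3i under ETH gave 17 with TMM scaling and 12 with effective lengths. Effective lengths and the fit over all groups gave 3827 and 3792 in place of 5822 for set 1 TAZi and 4115 and 4482 in place of 6792 for YAPi_TAZi, and the fit over all groups 554 in place of 272 for JUNBi in set 2. On coding TPM, 27 collagens in place of 19 reached 1. The causes were not tested.

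Leaving out a library gave 0 to 1 for TAM against ETH, 2 to 3 for YAPi, 1 for TAZi and 0 for STAT3i under TAM, 1 to 2 for YAPi, 0 to 3 for TAZi and 0 to 4 for JUNBi under ETH, 4 to 9 for TAZi and 3 to 7 for YAPi_TAZi in set 1, 0 to 1 for TAZi and 0 to 4 for TEADi among the knockdowns, 0 to 2 for JUNBi and for STAT3i in set 2, and 1 to 2 for YAPi against TAZi under ETH. A group left with 1 library was assumed to vary like the other. The share of all genes called in these fits is not given, so the counts cannot be set against it.

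With the replicate block the count was 1 for TAM against ETH, 3 for YAPi, 1 for TAZi and 0 for STAT3i under TAM, 3 for YAPi, 3 for TAZi and 2 for JUNBi under ETH, and 7 for TAZi in set 1. Over all genes it moved from 976 to 619, 1550 to 770, 470 to 177 and 1167 to 655 in the first 4 of these, from 1713 to 1122 and 739 to 404 for YAPi and TAZi under ETH, from 37 to 11 for STAT3i under ETH, from 4049 to 2555, 5822 to 2743 and 4682 to 2955 for YAPi, TAZi and TEADi in set 1, from 46 to 100 for the JUNBi interaction and from 920 to 593 for YAPi against TAZi under TAM. Same-numbered libraries share only a number under TAM (r over 0.1 in 3 of 10 pairs of groups), between TAM and ETH and in set 1 against its controls (-0.07 to 0.012). The blocked values under ETH and among the set 1 knockdowns stand beside the results they change. No paired analysis was possible because the replicate numbers of set 2 controls and knockdowns differ. The low depth of the set 1 knockdowns limits collagens with few reads there.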
